A study of Mus musculus with 15 samples.

Results

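Accessible chromatin of control macrophages was compared between a late and an early time of the response to lipopolysaccharide (LPS), 8 h against 3 h. The comparison rests on 6 of the 15 DNase-seq libraries of the series, 3 at 8 h and 3 at 3 h. At each time 2 libraries came from wild type (WT) mice and 1 from mice labelled Littermate control, and both kinds are called controls here. All libraries, KO included, are from macrophages grown from bone marrow of the C57BL/6J strain and stimulated with LPS at 10 ng/ml, with 0 h as the time before it. The titles give 80 U of DNase for WT replicate 1 and for the littermate, and 100 U for WT replicate 2, at both times, whereas the protocol names 1 amount for all, so the DNase amount differs between series and not between times. A series is the set of libraries of 1 genotype and replicate over the times. The other 9 libraries are 6 from macrophages labelled Ikzf KO (2 each at 0, 3 and 8 h) and 3 from the same controls at 0 h, and they were used only to describe the regions in libraries that did not choose them. The labels do not say which Ikzf gene or which cells carry the deletion. No label ties a library to an animal or a culture, so p-values measure only how far these libraries spread, and that spread may be technical.

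LPS is sensed by Toll-like receptor 4. In macrophages its signal runs first through NF-kB and AP-1 proteins that are already in the cell and open or reach enhancers of early response genes. A later wave follows through proteins made in the meantime and through secreted factors such as type I interferon. DNase I cuts chromatin that is free of nucleosomes more readily than wrapped DNA, so stretches rich in cuts mark promoters, enhancers and other regulatory elements. Ikaros, the zinc finger protein encoded by Ikzf1 and named in the series title, binds DNA in lymphoid and myeloid cells and recruits chromatin remodelling complexes.

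The authors' lists give each hotspot, a stretch enriched in DNase cuts, with its position in mm9, its highest and mean tag density (MaxD and AveD) and a Z-score. On chromosomes 1 to 19 the deposited lists held 46530 (WT replicate 1), 50212 (WT replicate 2) and 110569 (littermate) hotspots at 8 h, against 15042, 19384 and 50187 hotspots at 3 h. Each series had more hotspots at 8 h. The lists were made equally long by keeping the 15042 hotspots of highest MaxD in each, which takes WT replicate 1 at 3 h whole. Ranks from 1 (strongest) to 15042 were read within a list, since the scaling of tag density between libraries is not stated. Hotspots of the 6 lists that shared at least 1 bp were merged into 21156 union regions, and a region was counted as held by a list that has a hotspot in it.

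At equal list length the 8 h hotspots had higher median density and width than the 3 h hotspots. Median MaxD was 29.4, 26.7 and 27.0 in the 8 h lists (WT replicate 1, WT replicate 2, littermate), against 8.77, 11.5 and 9.03 in the 3 h lists. Median hotspot width was 1151, 1200 and 1554 bp at 8 h, against 634, 716 and 836 bp at 3 h. The lists covered 22.4 ± 4.11 Mb at 8 h, against 12.0 ± 1.85 Mb at 3 h (SD, n = 3 each). The groups did not overlap for any of these measures. The exact two-sided permutation test gave p = 0.1 for each, the smallest p that 3 against 3 libraries allow, and adjusted p = 0.12 over 6 measures. The MaxD of the last rank was 16.1, 16.3 and 16.7 at 8 h, against 1.25, 7.15 and 6.32 at 3 h, and it was the same just inside and just outside the limit in the 5 lists that were shortened. KO lists had median MaxD of 25.3 to 31.8 over the 3 times and 107045 to 127374 deposited hotspots on these chromosomes, and the 0 h controls had median MaxD of 8.66 to 10.3, so by density the control lists of 0 and 3 h stood on one side and those of control 8 h and of KO at every time on the other. In the lists as deposited, which end at their own thresholds, the 8 h minus 3 h difference was far smaller, 1.08 in place of 17.9 for median MaxD (exact two-sided permutation p = 0.5), 105 in place of 573 bp for median width (p = 0.3) and 0.762 in place of 28.7 for median Z-score (p = 0.7). Whether the difference between libraries at equal length plays a part in the shifts below was not tested.

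**Figure D1:**
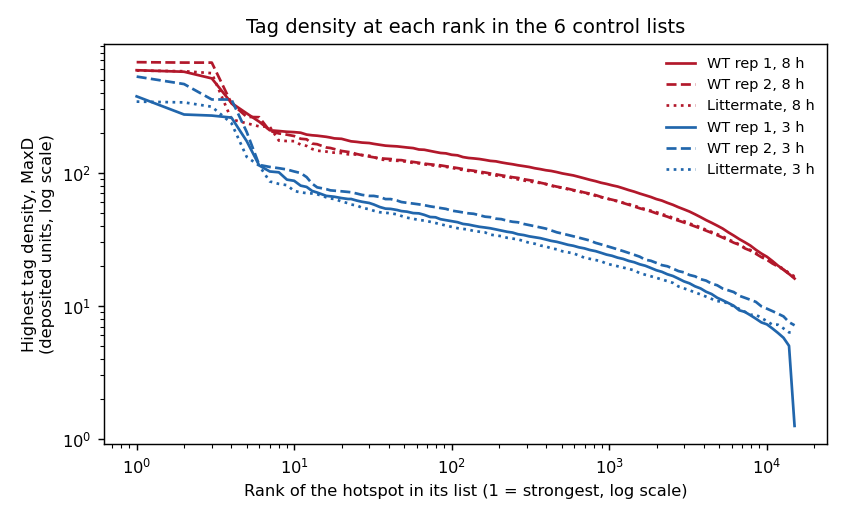
Highest tag density (MaxD, deposited units, log scale) of the hotspot at each rank (log scale) in the 6 equally long control lists, with 8 h in red and 3 h in blue. At nearly every rank the 8 h lines run above the 3 h lines, and they end at 16.1 to 16.7 against 1.25 to 7.15.

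Regions were sorted by the lists that hold them. All 3 lists of 8 h and none of 3 h held 618 regions, which is 2.92% of the union regions. The reverse, all 3 lists of 3 h and none of 8 h, held for 302 regions, or 1.43%. All 6 lists held 8895 regions (42.0%), and the next largest group, 2811 regions, was in a single 3 h list. Without agreement of all 3 lists the order was the reverse. Regions in 1 and in 2 lists of 3 h, and in none of 8 h, numbered 2811 and 682. Those in 1 and in 2 lists of 8 h, and in none of 3 h, numbered 1288 and 630. The count of regions in all lists of 8 h and none of 3 h stood above the reverse count under every alternative tried. The sizes of both counts moved. With lists of 0.5 times the length the counts were 183 against 158, and with the lists as deposited 11384 against 7. With a region counted only where hotspots cover at least 50% of it they were 3390 against 211. As runs of 500 bp bins they were 6389 against 294. The deposited 8 h lists are longer and the 8 h hotspots wider. The deposited-list, coverage and bin rules thus favour 8 h by design and lend the direction no separate weight. In bulk samples, fewer cells with an open site and a site that is less open in each cell cannot be told apart.

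**Figure D2:**
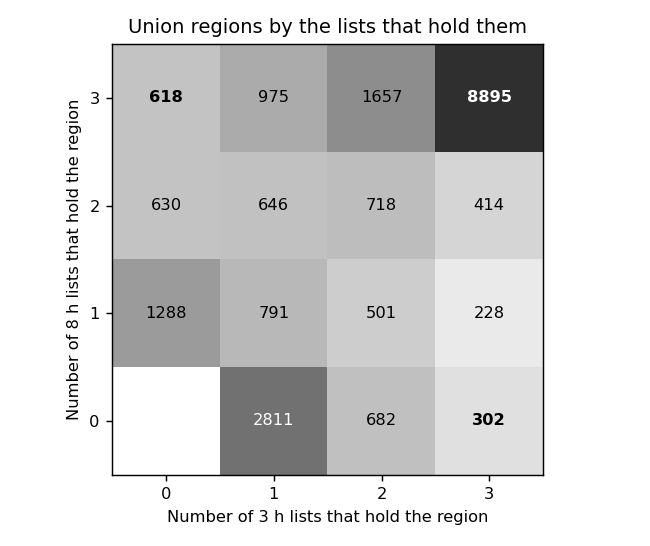
Number of union regions by how many of the 3 lists of 8 h (vertical) and of the 3 lists of 3 h (horizontal) hold them, shaded by the log of the count. The corners hold the 618 regions of 8 h alone, the 302 of 3 h alone and the 8895 of all 6 lists.

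The 618 regions of 8 h alone sat low in the 8 h lists, with median ranks of 12061.5, 10972.5 and 10272.5 of 15042. Their median MaxD at 8 h was 19.7, 20.8 and 22.0 (WT replicate 1, WT replicate 2, littermate). Most of them had a weak hotspot in a longer 3 h list. The deposited littermate list of 3 h held 476 of the 618 (77.0%), at a median rank of 20804 and a median MaxD of 5.42. The deposited list of WT replicate 2 at 3 h held 136 (22.0%), at a median rank of 17190 and a median MaxD of 5.96. A hotspot of a 3 h list no more than 10% past the limit was found in 115 of them (18.6%). In no deposited 3 h list were 128 regions (20.7%), although the WT lists of 3 h are short.

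Rank placed 5 regions at the head of this group. The region chr9:123883013-123883889 had ranks 6604, 2489 and 3611 at 8 h and MaxD of 32.1, 45.5 and 39.6. At 3 h it was only in the deposited littermate list, at rank 16212 with MaxD 5.87, and neither WT list held it. It was in no equally long control list of 0 h and in all 4 KO lists of 3 and 8 h, at ranks 14701 and 13889 in KO at 8 h, against 13480 and 11379 in KO at 3 h. At chr13:75961882-75963133 the 8 h ranks were 5641, 5383 and 2578, and at 3 h again only the littermate list held it, at rank 18811. No deposited control list of 0 h held it. This region was among the strong ones in KO, at ranks 1144 and 962 at 8 h, against 1791 and 1363 at 3 h, and it lies in a stretch of 3 such regions on chromosome 13 (75891429 to 75963133). Its KO ranks at 0 h were 22069 and 18722, outside the equally long lists.

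The other 3 leading regions were already in 3 or 2 of the 3 equally long control lists of 0 h. The clearest was chr8:125772166-125773384, with control ranks of 5051, 6167 and 3936 at 0 h and 5353, 6241 and 4413 at 8 h (WT replicate 1, WT replicate 2, littermate). Between these times, at 3 h, it was in neither WT list and at rank 41955 of the littermate list, so all 3 control series had a dip at 3 h. In KO it stood at ranks 30728 and 38283 at 8 h, against 31989 and 48270 at 3 h. The region chr8:35908671-35909728 had 8 h ranks of 6052, 5170 and 2907, against 18545 (WT replicate 2) and 18700 (littermate) at 3 h, and KO ranks of 6969 and 8854 at 8 h, against 15959 and 17924 at 3 h. Both KO replicates moved in the direction of the controls there. The fifth, chr1:182764871-182766341, had 8 h ranks of 7118, 4341 and 5304 and KO ranks of 8800 and 11158 at 8 h, against 12608 and 16020 at 3 h.

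Among the 128 regions that no deposited 3 h list held, the 3 of best rank were looked up after the values had been seen. The region chr6:146564855-146566096 had ranks 8679, 5015 and 3909 at 8 h and was in no control list of 0 or 3 h. In KO it was listed only at 8 h, at ranks 42974 and 49047, with MaxD of 7.53 and 6.40 against 26.1 to 38.3 in the 8 h controls. The region chr8:27176714-27177673 had ranks 6435, 5352 and 6266 at 8 h and was in no control list of 0 or 3 h. Its KO ranks were 7071 and 9944 at 8 h, against 28377 and 28194 at 3 h. The third, chr17:34726496-34727361, had ranks 7439, 6589 and 4826 at 8 h, no hotspot in any 3 h control list, and ranks 4922 and 8510 at 0 h in WT replicate 2 and the littermate.

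The 302 regions of 3 h alone were still in the longer 8 h lists. In the deposited 8 h lists 283, 272 and 300 of them were present (WT replicate 1, WT replicate 2, littermate), all 3 lists held 265 (87.7%), and 2 regions were in no 8 h list. Their median rank there was 21500, 22291 and 23209.5, and a hotspot of an 8 h list lay no more than 10% past the limit for 75 regions (24.8%). Where listed, their median MaxD was 11.4, 11.8 and 11.3 at 8 h, against 7.26, 9.53 and 8.13 at 3 h. In deposited units these medians were thus higher at 8 h, while mean median MaxD of the equally long lists was 2.84 times as high at 8 h as at 3 h, and the regions stood lower in rank.

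The leading 5 regions of this group all stood high at 0 h too. The region chr8:19924590-19925891 had ranks 16721, 22234 and 24554 at 8 h, against 697, 1682 and 897 at 3 h. Its MaxD was 14.7 and 11.8 in the WT lists of 8 h, against 27.1 and 22.6 in those of 3 h. At 0 h its control ranks were 439, 1084 and 837. KO held it at ranks 49890 and 44459 at 8 h, against 31378 and 24824 at 3 h. Of the other 4, chr9:115060355-115061757, chr7:18969160-18969827 and chr1:87487508-87490177 also stood lower in all 8 h controls, with 3 h ranks between 655 and 2729 in controls and ranks between 20929 and 68782 in KO at all times. Their KO ranks were lower in strength at 8 h than at 3 h except in KO replicate 2 at chr7:18969160-18969827, which had rank 58254 at 8 h, against 63853 at 3 h. The last, chr10:80640518-80641176, was touched by strong hotspots in KO at 3 h. It had ranks 20838, 21709 and 28871 in the 8 h controls, against 1164, 2468 and 1347 in the 3 h controls, while KO held it at ranks 27397 and 5429 at 8 h, against 2027 and 2119 at 3 h. The KO ranks thus differed by a wide margin between replicates at 8 h and not at 3 h. The KO hotspots were 656 and 2421 bp wide at 8 h, against 2433 and 2392 bp at 3 h, where the region is 658 bp wide. A hotspot wider than the region can have its highest density outside it, and this was not tested.

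Both classes were read in libraries that had no part in choosing them. In the equally long control lists of 0 h, 106 of the 618 regions of 8 h alone (17.2%) were in all 3 lists, 233 (37.7%) in 1 or 2, and 279 (45.1%) in none. Over all union regions these shares were 44.7%, 28.8% and 26.5%. Of the 302 regions of 3 h alone, 105 (34.8%) were in all 3 lists of 0 h and 102 (33.8%) in none. A dip at 3 h, meaning presence in all equally long lists of 0 h and 8 h and absence at 3 h, thus described 106 of the 21156 union regions. A peak at 3 h, meaning presence in the equally long lists of 3 h alone, described 102. Both rest on the rank limit and not on tag density, and 265 of the 302 were in all 3 deposited 8 h lists.

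The KO libraries showed the same directions, in shares that the choice did not fix. KO lists of 8 h held 48.2% and 48.4% of the 618 regions (Wilson 95% intervals 44.3 to 52.2% and 44.5 to 52.3%), against 34.6% and 33.8% in KO lists of 3 h (31.0 to 38.5% and 30.2 to 37.6%). Of the 302 regions of 3 h alone, KO lists of 8 h held 23.8% and 22.8%, against 32.5% and 32.1% in KO lists of 3 h. Both KO replicates agreed within 1 percentage point in each of these 4 values. Over all union regions the shares were 63.5% and 63.6% at 8 h, against 64.1% and 63.9% at 3 h. Regions share libraries, and the intervals cover counting error alone. No test was made between times within KO, where 2 against 2 libraries are too few for an exact test to reach 0.05. Both KO lists of 8 h and no KO list of 3 h held 71 of the 618 regions (11.5%), against 2.48% of all union regions. The reverse held for 15 of the 302 regions of 3 h alone (4.97%), against 2.83% of all union regions. In no KO list at any time were 209 (33.8%) of the 618 and 171 (56.6%) of the 302, against 21.2% of all union regions.

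**Figure D3:**
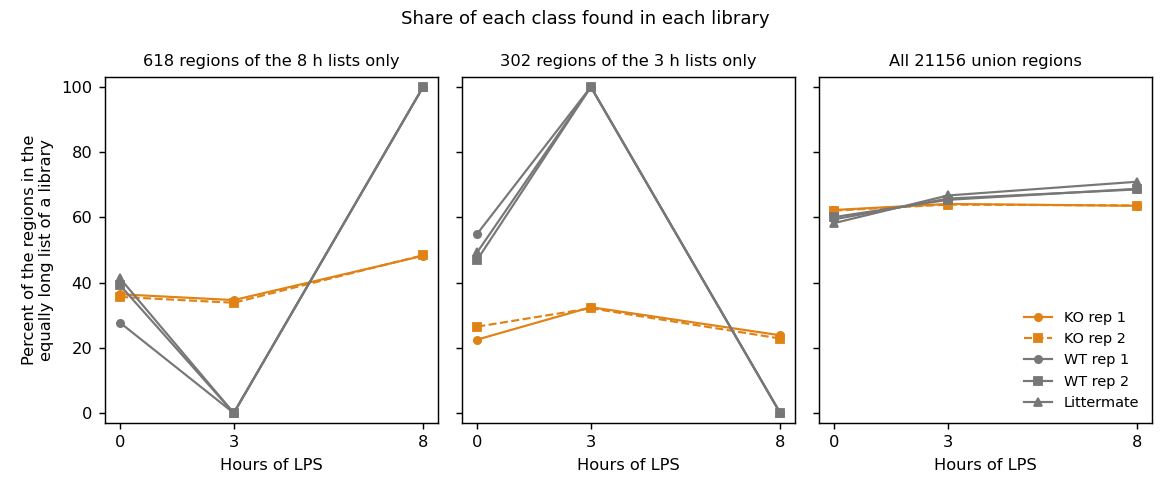
Percent of the 618 regions of 8 h alone, the 302 regions of 3 h alone and all 21156 union regions that are in the equally long list of each library, at 0, 3 and 8 h of LPS, with KO in orange and controls in grey. The control values of 0 and 100% at 3 and 8 h are fixed by the choice; KO lists held 48.2% and 48.4% of the 8 h regions at 8 h, against 34.6% and 33.8% at 3 h.

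The classes were also described by width and position. Regions of 8 h alone had a median width of 1210.5 bp, those of 3 h alone 780.5 bp, those of all 6 lists 1780 bp and all union regions 1302 bp. Hotspots of both classes were narrower than those of their own lists. For 8 h alone the medians were 879, 908 and 1207 bp, against 1151, 1200 and 1554 bp in the 8 h lists. For 3 h alone they were 522, 564.5 and 755 bp, against 634, 716 and 836 bp in the 3 h lists. Within 10 kb of a region held by all 6 lists lay 216 of the 618 (35.0%), against 24.0% of all union regions and 50 of the 302 regions of 3 h alone (16.6%). The median distance to such a region was 19.3 kb for regions of 8 h alone, 54.5 kb for those of 3 h alone and 31.2 kb for all union regions. Within 50 kb of another member of the same class lay 147 regions of 8 h alone (23.8%) and 84 of 3 h alone (27.8%). Counted in the same way, the share was 63.5% for regions of all 6 lists and 85.5% for all union regions. It rises with the number of members, so classes of unlike size cannot be compared by it. The largest such run of 8 h alone had 4 regions, at chr19:29456778-29571781. The largest runs of 3 h alone had 6 regions at chr17:3009888-3079763, at the centromeric end of the chromosome, and 5 each at chr5:33067996-33081078 and chr7:71218240-71230024. By chromosome, the share of 8 h alone ran from 1.95% on chromosome 9 to 4.16% on chromosome 13. That of 3 h alone ran from 0.893% on chromosome 6 to 2.25% on chromosome 18. These are descriptions without a test.

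For the 8895 regions of all 6 lists the strength of the best hotspot was compared as a percentile, where 100 stands for the strongest and 0 for the weakest of the 15042 hotspots of its list. The median shift, 8 h minus 3 h, was 1.19 percentile points, and the middle of the distribution (25th to 75th percentile of regions) ran from -4.61 to 7.59 points. With the regions split by mean percentile into 4 bins of near equal size, 253 regions of the weakest bin were higher and 243 lower by 20 points or more. In the strongest bin, where the end of the scale leaves little room, 2 were higher and 10 lower by as much. The percentile was higher at 8 h in all 3 series for 2094 regions (23.5%) and lower in all 3 for 1436 (16.1%). All 8 h values lay above all 3 h values for 645 regions (7.25%) and below them for 510 regions (5.73%). The smallest two-sided p that 3 against 3 libraries allow is 0.1, which takes both directions together. If the 6 libraries were exchangeable, random order would thus give shares not far below these. The pairing by series makes this reference a rough one.

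limma with Benjamini-Hochberg adjustment over the 8895 regions called 1 region higher at 8 h (0.0112%) and 37 lower (0.416%) at adjusted p under 0.05. Unadjusted p was under 0.05 for 405 higher and 294 lower regions. With the series as a block the calls were 5 higher and 53 lower, and these held the 1 and the 37. The count of 37 rests on all 3 of the 3 h libraries. Without any 1 of them limma called 0 lower regions (265 to 350 at unadjusted p under 0.05), and without any 1 of the 8 h libraries it called 36 to 42.

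**Figure D4:**
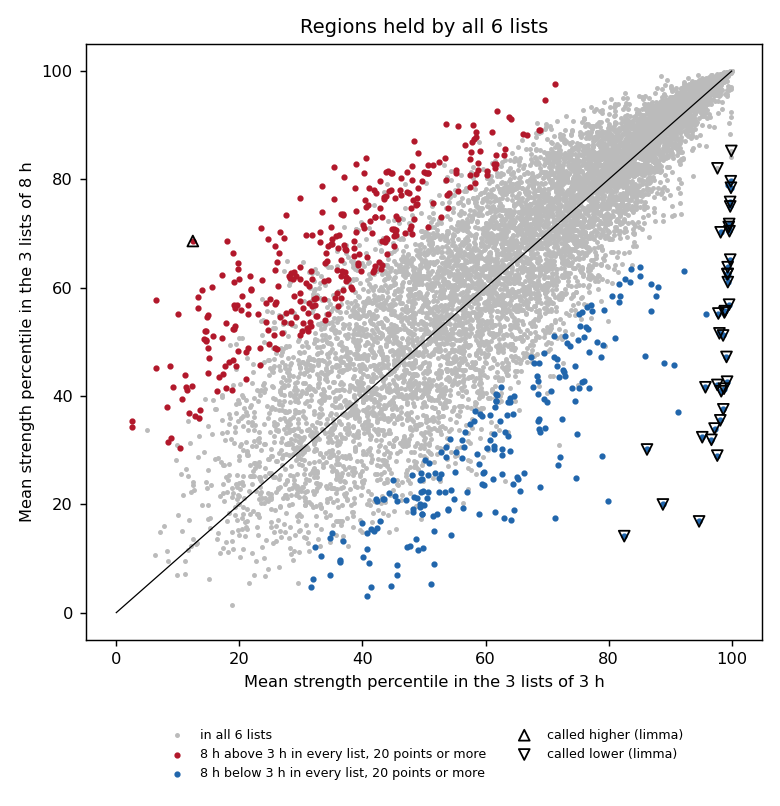
Mean strength percentile at 8 h (vertical) against 3 h (horizontal) of the 8895 regions held by all 6 control lists, with regions whose 8 h and 3 h values do not overlap and differ by 20 points or more in red (315, higher at 8 h) and blue (248, lower at 8 h), and limma calls as triangles. The called lower regions lie in the upper part of the 3 h scale, among regions that were not called, with a median shift of -43.4 points.

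The 37 called lower were among the strongest hotspots of the early lists and in the middle of the late ones. Their median percentile was 53.7, 54.0 and 50.7 at 8 h (WT replicate 1, WT replicate 2, littermate), against 99.1, 97.8 and 99.4 at 3 h. Their shifts ran from -77.9 to -14.7 points, with a median of -43.4, against 1.19 for all 8895. The 8 h values lay below the 3 h values in all lists for each of them. At 0 h they stood as high as at 3 h, with medians of 99.3, 99.2 and 99.5 over all 37. Of the 36 regions in all control lists of 0 h, 35 (97.2%) were nearer to their 3 h than to their 8 h percentile. Over all shared regions in those lists this held for 3407 of 7157 (47.6%). In deposited units their median MaxD was 30.8, 28.1 and 27.0 at 8 h, against 40.1, 40.1 and 41.1 at 3 h. These medians of tag density were thus lower at 8 h, while those of the equally long lists were 26.7 to 29.4 at 8 h, against 8.77 to 11.5 at 3 h.

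In KO the same regions stood lower than in the controls at 0, 3 and 8 h. Over 0, 3 and 8 h the equally long lists of KO replicate 1 held 31, 30 and 24 of the 37, and those of KO replicate 2 held 33, 31 and 20. Over all 37, with an absent region set to 0, KO replicate 1 had medians of 53.1, 34.4 and 15.6 over 0, 3 and 8 h, and KO replicate 2 had 50.8, 47.3 and 8.10. Over all 8895 shared regions the KO medians were 65.6 to 67.2 at these times. KO at 0 h thus stood close to the controls at 8 h and not to the controls at 0 h. KO at 8 h stood below the controls at 8 h, whose medians were 53.7, 54.0 and 50.7. The median MaxD of the equally long lists was high in KO at all times and, among the controls, at 8 h alone, and its part in the result was not tested.

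Many of the 37 lay near the first base of a chromosome. On chromosome 11, 15 of them lay at chr11:3026903-3099993, and the other 22 were spread over 10 more chromosomes. Several of the 15 are close neighbours, such as chr11:3049474-3050458 and chr11:3050542-3051771. They are no separate evidence, so the 37 regions stand for fewer separate places, and this stretch weighs on the shares and medians of the 37. The low end of a mouse chromosome is next to its centromere, since mouse chromosomes are telocentric, and satellite and other repeats are common there. Within the first 4 Mb of a chromosome lay 16 of the 37 (43.2%), against 1.25% of all union regions, 1.62% of the regions of 8 h alone and 4.97% of those of 3 h alone. The window was chosen after the positions had been seen. How the authors placed reads that match several repeats is not given in the sources used here, and its part in the values of these regions was not tested.

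The 5 called regions with the largest fall lay outside that window, which takes in only the low end of a chromosome. Distance to the high end was not measured, and the first of the 5 lies not far past the window. The region chr13:4560159-4561077 had percentiles of 21.7, 4.94 and 23.9 at 8 h, against 94.4, 91.9 and 97.8 at 3 h. Its MaxD was 20.1, 17.0 and 20.3 at 8 h, against 25.3, 25.8 and 29.3 at 3 h. The shift was -77.9 points (SE 9.78, limma adjusted p = 0.0231) and had the same sign in all 3 series. The region chr19:61339655-61340622 fell by 68.9 points in percentile (SE 10.8, limma adjusted p = 0.0231), with MaxD of 16.4, 22.2 and 20.3 at 8 h, against 18.3, 21.4 and 19.9 at 3 h. At chr4:20118685-20119410 the percentiles were 31.8, 9.50 and 1.02 at 8 h, against 83.8, 73.5 and 90.3 at 3 h (limma adjusted p = 0.0270). Its MaxD was 22.7, 17.7 and 16.7 at 8 h, against 17.0, 15.5 and 18.1 at 3 h. In deposited units both of these regions were thus higher at 8 h in 2 of the 3 series. The region chr9:115058419-115060315 had percentiles of 38.1, 22.3 and 26.5 at 8 h, against 97.9, 96.1 and 99.0 at 3 h. It lies 40 bp from chr9:115060355-115061757, one of the leading regions of 3 h alone, and in the littermate list of 0 h a single hotspot of 2070 bp spans both, so they are no separate evidence. The fifth, chr17:13498651-13499357, had percentiles of 39.4, 18.6 and 37.7 at 8 h, against 96.8, 94.5 and 98.8 at 3 h.

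The region called higher was chr13:19945669-19947514. It had percentiles of 64.2, 66.0 and 75.7 at 8 h, against 5.79, 21.3 and 10.2 at 3 h, a shift of 56.2 points (SE 9.75, limma adjusted p = 0.0376). Its best hotspot was 1533, 1631 and 1845 bp wide at 8 h, against 483, 840 and 956 bp at 3 h. In KO the percentiles were 77.2 and 71.0 at 8 h, against 51.4 and 64.1 at 3 h, higher at 8 h in both replicates. The control lists of 0 h did not agree on it, with 14.2, 39.6 and 81.6. The call was lost when any 1 of the 6 libraries was left out (limma adjusted p of 0.141 to 0.192), with the shift then between 52.7 and 60.6 points, and with the Z-score in place of MaxD (limma adjusted p = 0.197, shift 31.8 points).

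Most regions without overlap between the times fell short of the call, and these were described by size. With no overlap between the times and a mean shift of 20 points or more, 315 regions were higher and 248 lower at 8 h, and 35 of the 248 were among the 37 called. The 315 had median percentiles of 61.1, 66.6 and 72.1 at 8 h, against 34.4, 36.1 and 35.5 at 3 h. The control lists of 0 h, which played no part in the choice, held 245, 254 and 257 of them. Over all 315, with an absent region set to 0, the 0 h medians were 41.9, 48.4 and 54.4, between those of 3 and 8 h in each series. For the 218 in all control lists of 0 h, the median percentile was 62.2 at 0 h, 38.9 at 3 h and 68.9 at 8 h. Of these, 64 (29.4%) were nearer at 0 h to their 3 h percentile, against 47.6% of all shared regions so listed. The set was chosen for low values at 3 h, and regions absent from a 0 h list are left out here. Both raise the 0 h values against those of 3 h, so this share lends no separate weight. Over all 315 the 0 h median was nearer to that of 3 h in both WT series and to that of 8 h in the littermate.

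The 213 lower regions outside the calls had median percentiles of 29.5, 32.9 and 30.8 at 8 h, against 59.0, 63.8 and 65.7 at 3 h. The control lists of 0 h held 135, 137 and 130 of them. Over all 213, with an absent region set to 0, the 0 h medians were 24.3, 20.5 and 20.3, below those of both later times in each series. For the 96 in all control lists of 0 h, the median percentile was 51.6 at 0 h, 64.4 at 3 h and 34.3 at 8 h. Of these, 54 (56.25%) were nearer at 0 h to their 3 h percentile, with regions absent from a 0 h list again left out. The choice required presence in the lists of 3 and 8 h and not of 0 h, and over all 8895 shared regions the 0 h medians were 65.0 to 67.2. Within the first 4 Mb of a chromosome lay 4 of the 213 (1.88%), close to the share of all union regions, unlike the 37.

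In KO the medians of both sets moved in the direction of the controls and by less. Over all 315, with an absent region set to 0, the KO medians were 62.3 and 61.4 at 8 h, against 49.4 and 51.7 at 3 h. Over all 213 they were 38.5 and 38.7 at 8 h, against 52.1 and 52.8 at 3 h. Over all 8895 shared regions they were 65.6 and 66.0 at 8 h, against 66.9 and 67.2 at 3 h. The controls were chosen for a shift of 20 points or more and KO was not, and the difference between genotypes was not tested.

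**Figure D5:**
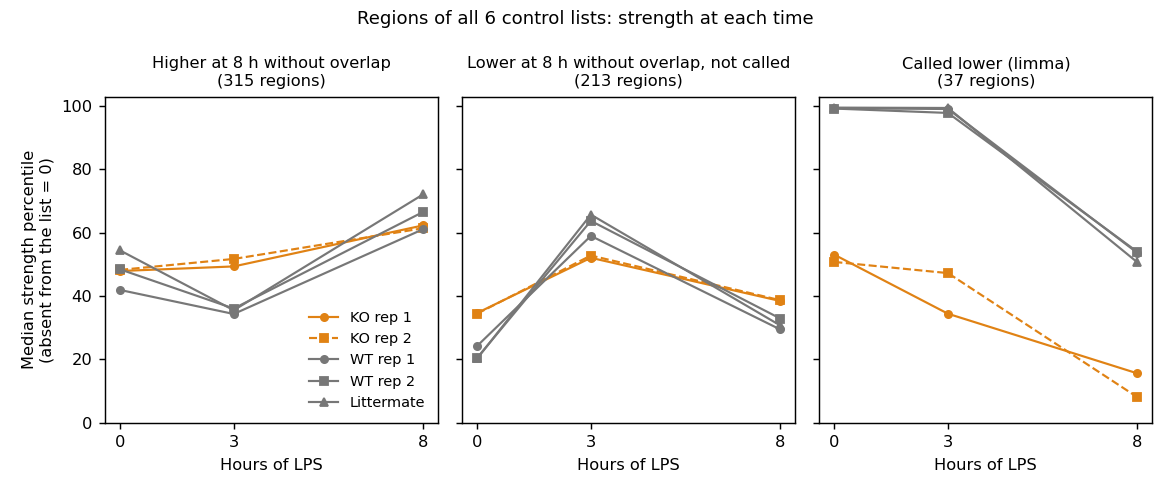
Median strength percentile of 3 sets of shared regions at 0, 3 and 8 h of LPS in each library, over all regions of the set with a region absent from the equally long list set to 0, with KO in orange and controls in grey. The control medians at 0 h lie at 41.9 to 54.4 for the 315 higher regions, at 20.3 to 24.3 for the 213 lower regions outside the calls and at 99.2 to 99.5 for the 37 called lower, which in KO lie at 8.10 to 53.1.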

How the data were processed

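The authors deposited 1 hotspot list per library, called on each library separately as far as the lists show. Per the file headers, each hotspot has a tag density that is a signal (MaxD, AveD), a Z-score that is a score, and a p-value, of which the deposited p-value was not used. CASAVA and the build mm9 are named in the submitters' processing notes. Not given in the sources used here are the aligner, hotspot caller, threshold and scaling. Depth is unknown, and whether positions count from 0 or 1 is not stated. All MaxD values of a list are whole multiples of 1 step (within 0.05 steps), 0.333 to 0.347 at 8 h, against 0.251 to 0.451 at 3 h.

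Lists were ranked by MaxD (ties by AveD, then position). Percentiles were 100 times (1 - (rank - 0.5) / 15042). Python 3.11.15 and limma 3.58.1 (trend, R 4.3.3) were used, with no block, and counts and fits were tested on simulated data. Same-series libraries deviated together (correlations 0.548, 0.350 and 0.459 against -0.410 to -0.0527 for other pairs), which together with the shared labels pairs the libraries. The main limma fit did not use this pairing, and the fit with the series as a block did. Named regions are the 5 of best mean rank in each presence class, and up to 5 of largest shift in each direction among called regions of one sign in all series. The members and lists were chosen with earlier results of these data known. Regions are given by position, and assignment to genes, cell type markers and sequences are not analysed here. Alternatives were the ranking measure, list length, chromosomes, libraries left out, overlap rule, scale, trend, block and threshold.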

Additional observations from a re-analysis of the deposited data

How the results depend on the processing

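The count of 618 regions of 8 h alone became 3390 with 50% of a region covered, 6389 as runs of 500 bp bins, 183 with lists of 0.5 times the length and 11384 with lists as deposited. That of 302 regions of 3 h alone became 158 and 7 under the same list lengths. With libraries left out, singly or as a series, the counts ran from 809 to 1269 and from 350 to 678, since fewer lists then had to agree. The single limma call higher at 8 h became 5 with the replicate block, 2 without a trend, 3 with log2 rank, 3 with the inverse-normal transform, and 0 with AveD, with lists of 0.5 times the length, with regions of 1 hotspot in each list (322 at unadjusted p under 0.05) and with any 1 library or series left out. The 37 calls lower became 53 with the replicate block, 20 without a trend, 56 with log2 rank and 14 with regions of 1 hotspot in each list. They became 21 with the Z-score, 0 with lists of 0.5 times the length (96 at unadjusted p under 0.05) and 0 to 42 with libraries left out. With chromosomes X and Y in the lists they became 67, of which 9 were on X, 17 on Y and 41 on chromosomes 1 to 19. The replicate block and log2 rank kept all of the 37, while 18 of them were called without a trend, 13 with the Z-score and 14 with regions of 1 hotspot in each list. The MaxD at the last rank, 11.4 higher at 8 h with equal lists, was -0.284 (8 h minus 3 h) with the lists as deposited, where each list ends at its own threshold. The shifts of the 6 named shared regions kept their sign in all 98 values under alternatives, of which 49 kept the call. No value exists where a region was not in all lists, as with lists of 0.5 times the length. The 6 were chosen for a large shift of one sign in all series, and their times did not overlap. Leaving out libraries or changing the scale or fit thus could not turn the sign, which lends the direction no separate weight. Rank shifts in lists as deposited were not run, since their lengths differ. Depth is unknown and limits what absence from a short list can show.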

Other observations

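Chromosomes X and Y were outside the comparison. With them in the lists, X held 1 region of 8 h alone (0.173% of its 579 regions) and 63 of 3 h alone (10.9%), and Y held 0 and 31 of its 100 regions, against 3.13% and 1.35% on chromosomes 1 to 19. Among regions of all 6 lists, limma then called lower at 8 h 9 of 96 on X, 17 of 22 on Y and 41 of 9013 on chromosomes 1 to 19. On X and Y it called 0 higher. This was seen after the files were read and was not tested.

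On chromosome 9 a region of opposite direction lay near the leading region of 8 h alone. The region chr9:123781866-123782497, called lower with a shift of -14.7 points (SE 2.38, limma adjusted p = 0.0270), lies 100516 bp before chr9:123883013-123883889. It was picked after its values had been seen.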
